A study of Oryza sativa with 2 samples.

Results

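The genes described here are those of ethanolic fermentation and of the response to submergence in rice, namely the alcohol dehydrogenases ADH1 and ADH2, the pyruvate decarboxylases PDC1 and PDC2, the alpha-amylase RAmy3D, and the SUB1-type transcription factors SUB1B and SUB1C. They were chosen by locus identifier. Values were available for 6 of the 7 among 38511 listed loci, and ADH2 (LOC_Os11g10510) was not analysed here. Their levels were measured by RNA sequencing of polyadenylated RNA in 1 group of 2 libraries, numbered 1 and 2, from whole wild-type plants of Nipponbare, the japonica cultivar behind the rice reference genome. The plants were 3 weeks old and had been raised in Yoshida hydroponic solution under short days (10 h of light and 14 h of dark, at a light intensity of 800 μmol per square metre and second). The labels name no submergence, oxygen shortage or other treatment, so the values describe the level of these genes in seedlings under the growth conditions given. Roots in nutrient solution and shoots in air went into the same RNA, and a difference in the make-up of a sample cannot be told apart from a difference in RNA per cell.

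When oxygen runs short, plant cells regenerate NAD+ by fermentation, in which pyruvate decarboxylase turns pyruvate into acetaldehyde and alcohol dehydrogenase reduces acetaldehyde to ethanol. RAmy3D breaks down starch and is known for its induction by sugar starvation, which feeds fermentation in rice seeds germinating under water. SUB1B and SUB1C encode ethylene response factors of the SUB1 locus, whose other member, SUB1A, gives submergence tolerance to some indica rice and is missing from japonica cultivars such as Nipponbare.

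The genes fell into a high set of 4, at means of 35.1 to 70.0 FPKM, and a low set of 2, at means of 1.37 and 1.50 FPKM. FPKM counts fragments per kilobase of transcript, scaled to the depth of the library, so levels of different genes can be set side by side. ADH1, PDC2, SUB1B and SUB1C formed the high set, and RAmy3D and PDC1 the low set. The median of the 6 means was 37.1 FPKM, against a median of 0.979 FPKM over all listed loci and 9.91 FPKM over loci with a mean of at least 1 FPKM. All 6 genes reached a mean of 1 FPKM, the threshold used here for an expressed locus, which 49.8% of listed loci reached. At 1 FPKM or more in both libraries there were 4 of the 6, against 47.1% of listed loci, since RAmy3D and PDC1 were below 1 FPKM in library 2.

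**Figure D1:**
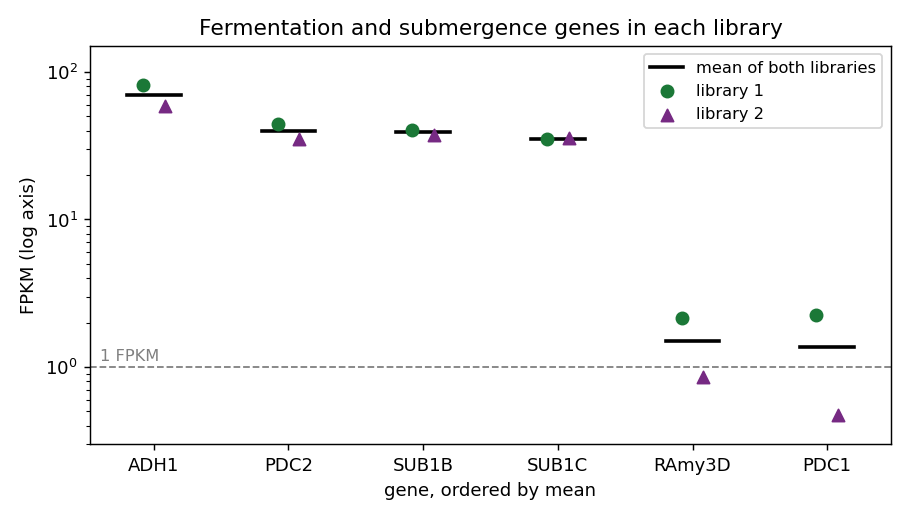
FPKM (log axis) of each gene in library 1 (circles) and library 2 (triangles), with the mean of both as a bar, and a dashed line at 1 FPKM. The 4 genes on the left lie at 34.9 FPKM or more in both libraries, while RAmy3D and PDC1 lie on either side of 1 FPKM.

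Alcohol dehydrogenase ADH1 (LOC_Os11g10480, on chromosome 11 by its identifier) had the highest level of the 6. It stood at 81.3 FPKM in library 1, against 58.7 FPKM in library 2, or 70.0 ± 16.0 FPKM (SD, n = 2 here and for every mean below). Even its lower library was above the higher library of every other gene described here. ADH1 ranked 1538 by mean level, with 96.0% of listed loci below it, and its rank was 1294 in library 1 and 1890 in library 2. The reference table places ADH1 and Adh2 on the same chromosome with 3 annotated genes between them. How reads matching both copies were assigned is not given in the sources used here, so the level of ADH1 is uncertain to that extent. The same limit holds for any reads matching both PDC1 and PDC2, or both SUB1B and SUB1C, whose sequences were not compared here. The values of ADH1 are also written with more digits than those of the other genes described here, for a reason not given.

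The 2 pyruvate decarboxylases, which catalyse the same step, differed widely in level. PDC1 (LOC_Os05g39310, chromosome 5) had 2.27 FPKM in library 1, against 0.473 FPKM in library 2, a mean of 1.37 ± 1.27 FPKM. PDC2 (LOC_Os03g18220, chromosome 3) had 44.3 FPKM in library 1, against 35.2 FPKM in library 2, a mean of 39.8 ± 6.47 FPKM. The ranges of PDC1 and PDC2 did not overlap. PDC1 supplied 4.87% of the summed FPKM of both in library 1 and 1.33% in library 2. As log2(FPKM + 1), a transform that shrinks differences of low genes, PDC1 minus PDC2 was -3.79 in library 1 and -4.62 in library 2, a mean difference of -4.21 ± 0.58, so the gap was far larger than its spread between the libraries. The linear ratio of PDC1 to PDC2, for which nothing is added to the FPKM, was less steady, at 0.0512 in library 1 and 0.0135 in library 2. The level of PDC1 itself differed between the libraries, and the log2(FPKM + 1) scale shrinks that difference. By rank, PDC1 stood at 18202, with 52.7% of listed loci below it, and PDC2 at 2937, with 92.4% below it.

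ADH1 was above PDC2, the higher of the decarboxylases, in both libraries. The ratio of their FPKM was 1.83 in library 1 and 1.67 in library 2 (1.75 ± 0.12). Both genes were lower in library 2, and the ratio between them moved less than either level did. The sum of ADH1, PDC1 and PDC2 was 128 FPKM in library 1, against 94.4 FPKM in library 2.

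RAmy3D (LOC_Os08g36910, chromosome 8), the starch-degrading amylase, was low. It had 2.14 FPKM in library 1, against 0.862 FPKM in library 2, a mean of 1.50 ± 0.90 FPKM, with 53.4% of listed loci below that mean. In library 2 alone 49.7% of listed loci were below it. Its range lay inside that of PDC1, so the order of these 2 genes was not resolved: PDC1 was the higher in library 1 and RAmy3D in library 2. RAmy3D reached 0.0482 times the FPKM of PDC2 in library 1 and 0.0245 times in library 2.

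The 2 SUB1 genes stood close to each other and varied least between the libraries among the 6 genes. SUB1B (LOC_Os09g11460, chromosome 9) had 40.5 FPKM in library 1, against 37.5 FPKM in library 2, a mean of 39.0 ± 2.13 FPKM. SUB1C (LOC_Os09g11480, chromosome 9) had 34.9 FPKM in library 1, against 35.4 FPKM in library 2, a mean of 35.1 ± 0.34 FPKM. SUB1B was above SUB1C in both libraries and their ranges did not overlap, but the difference was small. SUB1B minus SUB1C was 0.21 on the log2(FPKM + 1) scale in library 1 and 0.08 in library 2, a mean of 0.15 ± 0.09. SUB1B thus made up 53.7% of the summed FPKM of the pair in library 1 and 51.4% in library 2. Of all listed loci, 92.2% had a mean below SUB1B and 91.3% a mean below SUB1C.

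**Figure D2:**
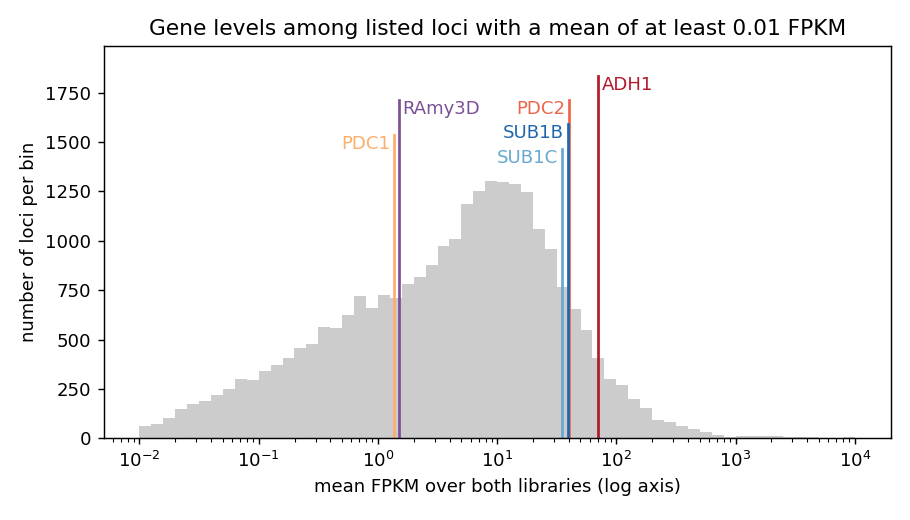
Number of listed loci per bin of mean FPKM over both libraries (log axis, loci with a mean of at least 0.01 FPKM), with a line at the mean of each gene. PDC2, SUB1B, SUB1C and ADH1 lie right of the peak, between 35.1 and 70.0 FPKM, while PDC1 and RAmy3D lie left of it, at 1.37 and 1.50 FPKM.

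Ordered by mean, the genes ran ADH1, PDC2, SUB1B, SUB1C, RAmy3D and PDC1. Of the 5 pairs of neighbours in this order, 3 had ranges that did not overlap (ADH1 and PDC2, SUB1B and SUB1C, SUB1C and RAmy3D). PDC2 could not be ordered against SUB1B, nor against SUB1C, whose highest value of 35.4 FPKM passed the lowest of PDC2, 35.2 FPKM. With 2 values for each gene, taken as unpaired, an exact permutation test between genes cannot give a two-sided p below 0.333. For this reason no test of the order is given.

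By value, the replicate ratios of the 4 enzymes were larger than those of the 2 SUB1 genes, a contrast that was not tested. Between library 1 and library 2, 6.75% of the expressed loci were at least 2-fold apart on the log2(FPKM + 1) scale, and 1 of the 6 genes was. Library 1 was the higher by that margin at 3.49% of them. The gene that far apart was PDC1, higher in library 1, at a log2 ratio of library 1 over library 2 of 1.15, and 5.0% of expressed loci had a ratio at least as far from 0. At means of 1 to 2 FPKM, where PDC1 and RAmy3D lie, 11.3% of loci were 2-fold apart. At 20 to 100 FPKM, the class that holds the other 4 genes, 4.98% were. The log2 ratio was 0.75 for RAmy3D, 0.46 for ADH1, 0.33 for PDC2, 0.11 for SUB1B and -0.02 for SUB1C. Library 1 was thus the higher for 5 of the 6 genes, among them ADH1, both decarboxylases and the amylase, while it was the higher for 47.1% of expressed loci. The median ratio of the 6 genes was 0.39, against -0.02 over expressed loci with an SD of 0.58. With 1 library on each side these differences have no test, and a ratio of the size of that of ADH1 or larger was found at 23.4% of expressed loci. On the linear scale PDC1 was 4.79-fold and RAmy3D 2.48-fold higher in library 1, but both ratios rest on library 2 values below 1 FPKM.

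**Figure D3:**
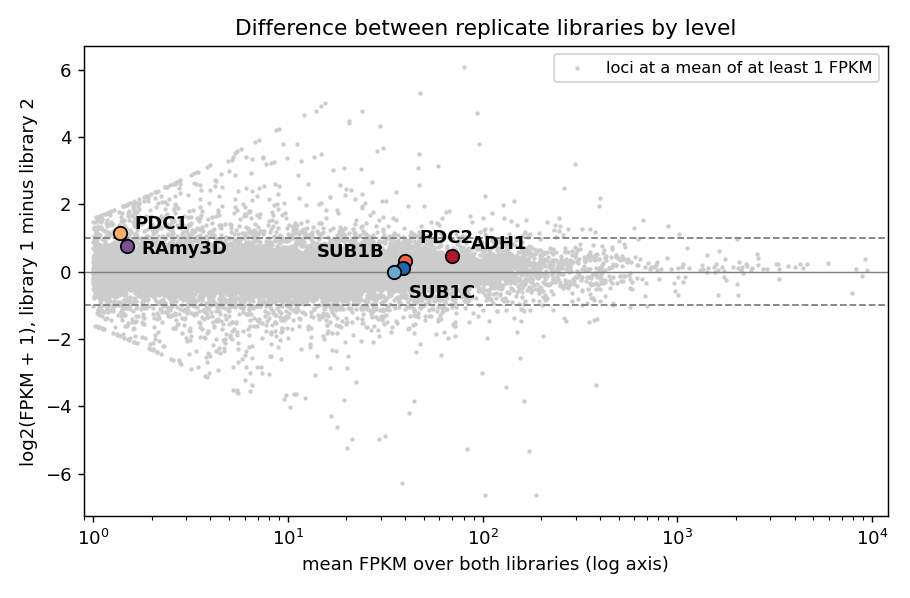
Difference in log2(FPKM + 1) between library 1 and library 2 (vertical) against mean FPKM (log axis) for loci with a mean of at least 1 FPKM (grey) and the 6 genes (coloured). Dashed lines mark 2-fold differences. PDC1 at 1.15 lies past the line, and the other 5 genes lie between -0.02 and 0.75.

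The surroundings of each gene were read from the locus numbers, which increase along a rice chromosome. Within 50 locus numbers there were 28 other listed loci, which carry no gene names here. Of these, 64.3% were expressed, against 49.8% of all listed loci. ADH1, PDC2, SUB1B and SUB1C were each above every unnamed neighbour. These 4 genes also stood above 91.3% or more of all listed loci, so their level alone would place them above most neighbours. The unnamed neighbours of SUB1B were all among those of SUB1C. ADH1, at 70.0 FPKM, had 5 unnamed neighbours with means of 0.051 to 26.3 FPKM. PDC2, at 39.8 FPKM, had 9 with means of 0.049 to 25.5 FPKM. Between SUB1B and SUB1C lies LOC_Os09g11470, which was listed at 0 in both libraries. The locus before SUB1B, LOC_Os09g11450, had 18.8 FPKM in library 1, against 22.7 FPKM in library 2, below both SUB1 genes. The 2 low genes did not top their surroundings. PDC1, at 1.37 FPKM, was below 3 of its 4 neighbours, which reached 27.4 FPKM. RAmy3D, at 1.50 FPKM, was below 2 of its 4 and stood next to LOC_Os08g36920, which had 159 FPKM in library 1, against 231 FPKM in library 2, while LOC_Os08g36900 on its other side had 0.035 FPKM in library 1 and was listed at 0 in library 2.

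**Figure D4:**
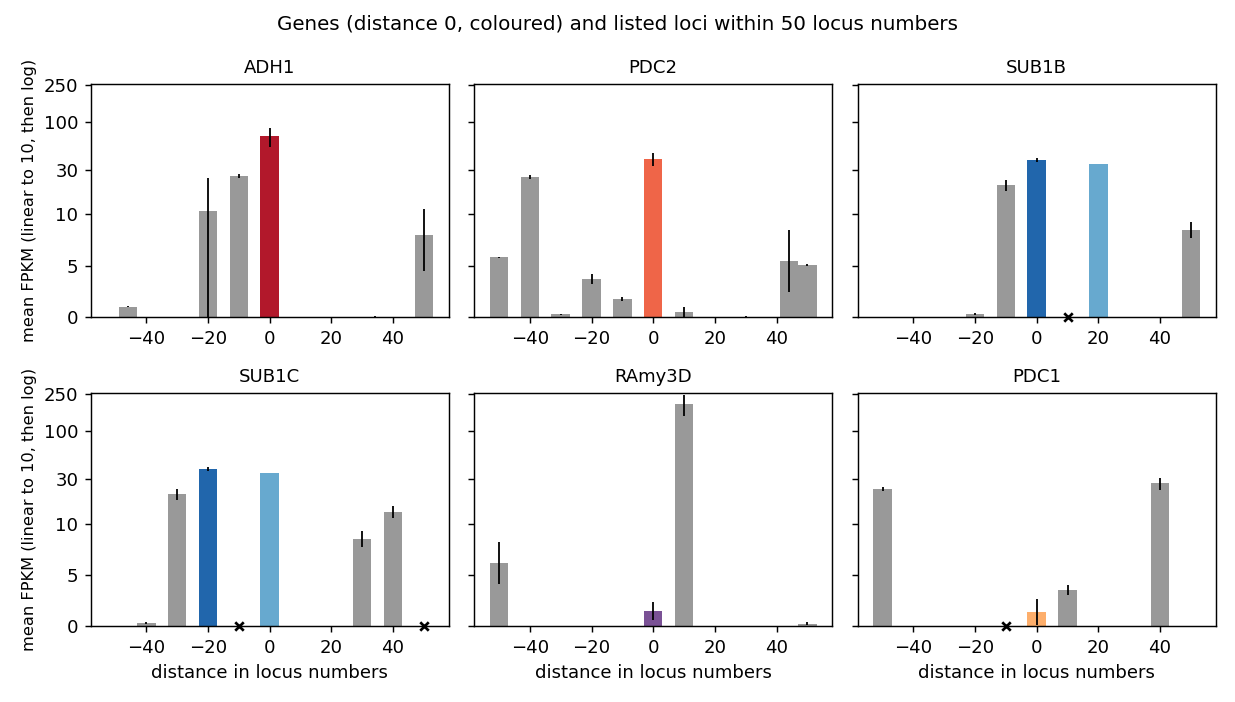
Mean FPKM (linear to 10, then log) of each gene at distance 0 (coloured) and of the listed loci within 50 locus numbers on either side (grey, or coloured where SUB1B or SUB1C is the neighbour), with error bars for the SD of 2 libraries and crosses for loci listed at 0 in both. ADH1, PDC2, SUB1B and SUB1C top all grey bars of their panels, while RAmy3D at 1.50 FPKM stands beside a locus at 195 FPKM.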

How the data were processed

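Polyadenylated RNA was turned into libraries with an NEBNext Ultra kit and read on an Illumina HiSeq sequencer, per the labels' protocols. The authors deposited FPKM values for each locus, per the file headers, made with Cufflinks, per the submitters' processing notes. The aligner, genome build, annotation and strand setting were not given in the sources used here. The sum of all values was 670155 FPKM in library 1, against 651935 FPKM in library 2. Read numbers are unknown, so no counting interval is given. The commonest ratio at 940 loci of very low level gave library 2 a depth 1.07 times that of library 1, provided that fragment lengths were equal. Loci with a log2 ratio of 0.5 or more in either direction were left out beforehand, so a larger difference in depth could not have been found. More than 6 digits are written for 25.3% of values above 0 in library 1 and 25.5% in library 2, those of ADH1 among them in both. How these longer values were made is not described in these sources. The other genes described here have 6 digits in each library.

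Nothing in the labels tells whether separate plants were used, so the SD may be technical. Levels are means ± SD over libraries. Log2 ratios and differences use a pseudocount of 1 FPKM, and linear ratios use none. The count of loci 2-fold apart was checked on simulated data. No test was run, and alternatives were other scalings, pseudocounts, thresholds and single libraries. Genes and lists were chosen with earlier results of these data known. The genes named are the 7 of the rule and loci beside them. Gene names come from the rule, and 5 of the 7 (all but SUB1B and SUB1C) matched a gene of the RefSeq table (assembly ASM3414082v1) on the chromosome in the identifier. Of 34 further symbols of the pathway and 14 tissue markers, 0 could be paired with a listed identifier, so neither list was described and the labelled tissue was not checked against markers. Sequences were not used here. Software was Python 3.11.15, pandas 2.3.3, numpy 2.4.6 and scipy 1.17.1.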

Additional observations from a re-analysis of the deposited data

How the results depend on the processing

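Rescaling both libraries to a common sum of 1000000 raised ADH1 to 105.7, PDC2 to 60.1, SUB1B to 59.0 and SUB1C to 53.2 on the new scale, by construction. It likewise raised RAmy3D to 2.26 and PDC1 to 2.06, and left the order of the 6 genes as it was. With single libraries, 4 of the 5 neighbouring pairs in the order kept it. PDC1 minus PDC2 became -5.09 with a pseudocount of 0.1, which shrinks low values less. The number of genes 2-fold apart between libraries was 2 with that pseudocount, when RAmy3D reached a log2 ratio of 1.22 and PDC1 2.05, and 0 with a filter at a mean of 5 FPKM, which leaves out PDC1 and RAmy3D and lowers the count over all loci to 720 from 1295. Expressed genes numbered 4 to 6 when 1 library was left out. The other alternatives moved each level, and each difference between PDC1 and PDC2 or SUB1B and SUB1C, by no more than its SD between libraries. They moved counts by no more than 1.5 times. For levels and differences in single libraries this outcome was fixed, because either of 2 values lies less than 1 SD from their mean. It held even for PDC1, whose mean of 1.37 FPKM became 2.27 FPKM in library 1 and 0.473 FPKM in library 2. No comparison of groups, paired or unpaired, was possible because both libraries belong to the same group. Genes were compared with each other within each library. The small number of libraries and their unknown depth limit what can be said of PDC1 and RAmy3D.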

Other observations

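Close to ADH1, LOC_Os11g10460 had 0.758 FPKM in library 1, against 20.8 FPKM in library 2. On the log2(FPKM + 1) scale, library 1 minus library 2 was -3.63, the opposite direction to ADH1 (0.46). Of the 18 expressed unnamed loci within 50 locus numbers of the 6 genes, 1 was 2-fold apart on the log2(FPKM + 1) scale, against 6.75% of all expressed loci. It was this locus, which was singled out after its values were seen. LOC_Os11g10470, which lies between it and ADH1, had 27.2 FPKM in library 1, against 25.4 FPKM in library 2.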
